A study of Mus musculus with 4 samples.

Results

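The cells described here are macrophages of the mouse heart that carried UMIs (unique molecular identifiers, each counting 1 captured RNA molecule) of at least 4 of the 7 genes Ccl8, Fcrls, Cela1, Rapsn, Syngr1, Tmem119 and Ctla2b. They also carried at least 10 UMIs of the complement genes C1qa, C1qb and C1qc per 10000 UMIs of the cell, and 0 UMIs of Ccr2, the receptor that marks cells recently derived from monocytes. Members were thus chosen by their measured UMI counts of these genes. The rule was met by 1367 of the 17312 kept cells and is called membership below. All other cells that met the C1q condition, 12568 in number, are called other C1q-high cells. There were 795 members after carboplatin with AngII/PE, 443 after PBS with AngII/PE, 51 after carboplatin with saline and 78 after PBS with saline.

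Adult mice received carboplatin, a drug that crosslinks DNA, at 45 mg/kg in 2 injections a week over 2 weeks, or PBS, and were then left for 4 weeks. A minipump under the skin next delivered angiotensin II at 1.5 mg/kg and phenylephrine at 50 mg/kg per day (AngII/PE, which raises blood pressure) or saline for 7 days. Each of the 4 groups was 1 library from 5 pooled mice of both sexes. Its cells were sorted as positive for CD45, CD11b and CD64, negative for Ly6G and low for Ly6C. The libraries hold whatever the gate let through, so cells of high Ly6C lie outside the data. With 1 library a group there is no replicate error, so every comparison is between libraries and not between conditions, and no test was made. The labels name no strain or genotype, and by the labels the groups differed in the injection and the pump only.

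Cardiac macrophages that lack Ccr2 include long-lived resident cells, which renew in place, and cells that entered as monocytes and later lost the receptor. Under pressure load, incoming monocytes add macrophages to the heart, and some take on lipid-handling and matrix genes such as Spp1 and Gpnmb. Fcrls, an Fc receptor-like scavenger receptor, and Tmem119, a membrane protein, are best known as markers of mouse microglia. Ccl8 encodes a CC chemokine that draws in monocytes and other leukocytes.

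Promoters are shown for Ccl8 and Fcrls, the genes the cells are named after, and for Cela1, the rule gene whose level differed most between the AngII/PE libraries. They run from 250 bases before to 50 after the start site, on the strand of the gene, from RefSeq on GRCm38.p6. Of the 7 rule genes and Ms4a7, 6 had an entry, and Rapsn and Tmem119 did not. Capitals mark GAGGAA on either strand, a core that the macrophage factor PU.1 can bind. The Ccl8 window is chr11:82114935-82115234 on the plus strand, the Fcrls window chr3:87263475-87263774 on the minus strand and the Cela1 window chr15:100687871-100688170 on the minus strand.
Ccl8: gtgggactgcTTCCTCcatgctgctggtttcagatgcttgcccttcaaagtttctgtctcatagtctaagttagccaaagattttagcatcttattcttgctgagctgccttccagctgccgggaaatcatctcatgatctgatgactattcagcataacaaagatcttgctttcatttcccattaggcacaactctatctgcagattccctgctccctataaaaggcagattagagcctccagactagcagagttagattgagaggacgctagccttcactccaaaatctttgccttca
Fcrls: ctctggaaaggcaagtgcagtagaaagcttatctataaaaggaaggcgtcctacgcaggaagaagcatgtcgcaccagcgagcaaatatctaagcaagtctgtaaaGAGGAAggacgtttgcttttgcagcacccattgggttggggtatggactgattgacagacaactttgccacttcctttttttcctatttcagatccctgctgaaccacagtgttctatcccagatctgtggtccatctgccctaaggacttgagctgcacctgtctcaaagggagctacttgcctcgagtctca
Cela1: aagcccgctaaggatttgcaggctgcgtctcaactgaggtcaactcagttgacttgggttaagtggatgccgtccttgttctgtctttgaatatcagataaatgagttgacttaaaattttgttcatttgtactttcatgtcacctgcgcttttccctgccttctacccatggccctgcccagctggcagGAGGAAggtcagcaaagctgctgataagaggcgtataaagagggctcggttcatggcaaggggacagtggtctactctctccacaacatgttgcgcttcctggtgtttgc
Each of the 3 windows held 1 match, and 28.3% of 27025 mouse promoters of this length held at least 1. The letters TGCTGA, a part of sites for MAF factors, stood 2 times in the Ccl8 window, 1 time in Fcrls and 2 times in Cela1, and are found in 19.1% of all promoters. No match to either set of letters was present in the windows of Syngr1 or Ctla2b. A match is a string of letters and was not tested as a binding site.

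The libraries held 5997 to 8012 barcodes and 3484 to 5669 kept cells. Members were deeper than other C1q-high cells in every library, with a median of 15480 UMIs against 12040 after carboplatin with AngII/PE and 15880 against 11920 after PBS with AngII/PE. A rule that asks for UMIs of 4 genes favours deep cells. Between 1 and 10 kept barcodes were shared by each pair of libraries, and 0 barcodes were members in both libraries of a pair. Markers of other cell types, with at least 3 genes of 1 type, were found in 169 of the 795 members after carboplatin and 100 of the 443 after PBS under AngII/PE. Cells with a UMI of Xist and of no Y-linked gene were called female, and the reverse male. Under AngII/PE, 62 members after carboplatin had both and 49 neither, and 18 and 30 after PBS, and these were left uncalled. Of called members 47.8% were female after carboplatin with AngII/PE (327 female and 357 male), against 23.8% after PBS with AngII/PE (94 female and 301 male), so many ratios are also given within each sex. Where a pair of values is marked female and male, they are log2 ratios, carboplatin over PBS under AngII/PE, among female-called and among male-called members. The animals behind a sex within a library are not separable, so sex and individual mice cannot be told apart.

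Of the 2 genes in the name Ccl8 and Fcrls macrophages, nearly all members carried Fcrls and only a part carried Ccl8. Both are rule genes, so their shares in members follow in part from the rule and are a description. Fcrls had at least 1 UMI in 99.6% of members after carboplatin with AngII/PE and 98.4% after PBS with AngII/PE. Ccl8 had a UMI in only 41.6% and 33.6% of the same members, and 80.4% and 70.5% of the members after carboplatin with saline and PBS with saline. Other C1q-high cells after PBS with AngII/PE, at lower depth, held Fcrls in 71.6% and Ccl8 in 7.96%. Ccl8 was also uneven: the tenth of members with the most Ccl8 held 79.4% of its UMIs after carboplatin with AngII/PE and 85.7% after PBS with AngII/PE, against 24.6% and 26.3% for Fcrls. After each cell was thinned to 5000 UMIs, Ccl8 was seen in 27.2% (95% interval 24.1 to 30.5) of members after carboplatin and 22.6% (18.8 to 26.8) after PBS under AngII/PE. Endothelial cells of the same libraries, which serve as a check on free RNA, showed it in 1.69% and 1.31% at that depth, with unthinned medians of 11220 and 10470 UMIs. All intervals here are exact, at 95%, and cover counting error only.

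Levels in CPM (UMIs of a gene per 1000000 UMIs summed over the cells of a group) show which rule genes set the members apart. These differences follow from the rule and are given as a description. Ccl8 stood at 235 CPM in members and 47.9 CPM in other C1q-high cells after carboplatin with AngII/PE, and at 219 and 37.7 CPM after PBS with AngII/PE. Cela1, which encodes a secreted elastase, stood at 35.4 against 7.65 CPM and 22.5 against 5.35 CPM. Syngr1, which encodes the vesicle protein synaptogyrin 1, stood at 120 against 37.8 CPM and 129 against 38.8 CPM. Ccl8, Cela1 and Syngr1 thus had ratios above 3 in both AngII/PE libraries.

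Fcrls was high in members and in other C1q-high cells alike, at 970.2 against 599.8 CPM after carboplatin and 719.6 against 434.0 CPM after PBS under AngII/PE. Tmem119 was close in both sets, at 96.9 CPM in members against 100 CPM in other C1q-high cells after carboplatin, and 113 against 95.4 CPM after PBS. Its levels in C1q-high cells with Ccr2 were 116 CPM after carboplatin and 109 CPM after PBS, so it was not a mark of cells without Ccr2. Against other C1q-high cells with 0 UMIs of Ccr2, Tmem119 was higher in members, by 0.63 after carboplatin and 0.73 after PBS on the log2 scale. Those cells were outside membership only because they carried too few rule genes, so this difference follows from the rule and is a description. Rapsn, whose protein clusters acetylcholine receptors at the nerve-muscle junction, stood at 67.2 against 30.2 CPM after carboplatin and 58.8 against 24.96 CPM after PBS. Ctla2b, similar in sequence to the inhibitory part of cathepsins, stood at 163 against 76.4 CPM and 176 against 70.7 CPM. Endothelial cells held 62.5 and 59.5 CPM of Ctla2b, and its near-identical neighbour Ctla2a may share reads, so its values are uncertain. Ms4a7, a membrane protein of macrophages that the rule did not use, stood at 2317 against 1656 CPM after carboplatin and 2172 against 1444 CPM after PBS.

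**Figure D1:**
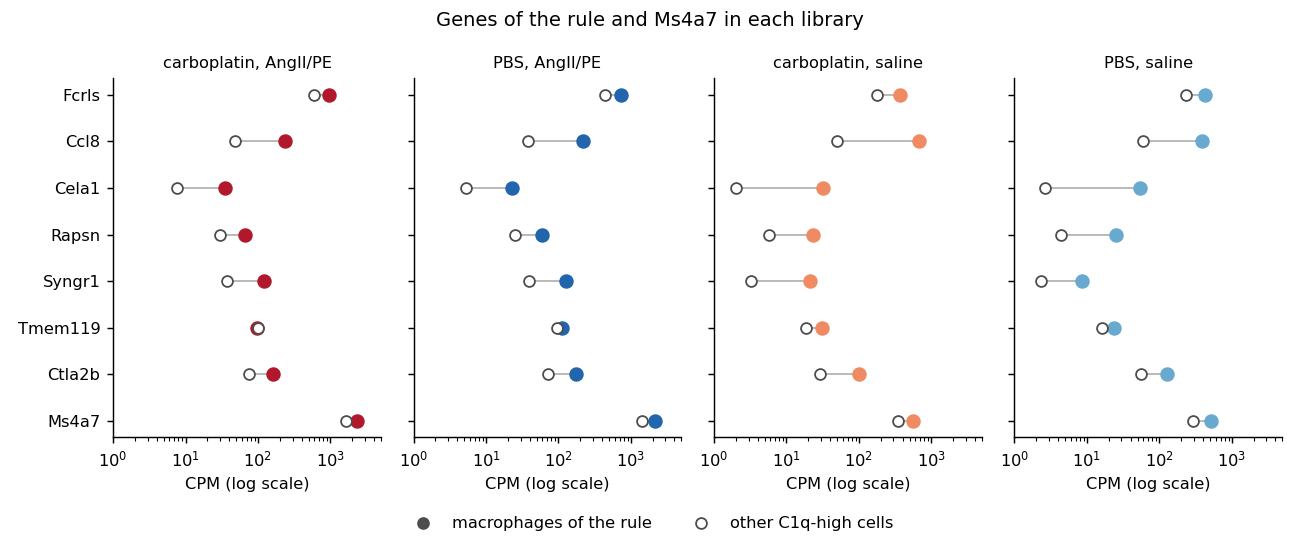
CPM on a log axis of the 7 rule genes and Ms4a7 in members (filled) and other C1q-high cells (open), with 1 panel per library. Ccl8, Cela1 and Syngr1 are far apart in the AngII/PE panels, whereas Tmem119 overlaps (96.9 against 100 CPM after carboplatin) and Ms4a7 is above 1000 CPM in both kinds of cell under AngII/PE only.

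Members were 15.5% (14.5 to 16.5) of C1q-high cells after carboplatin with AngII/PE and 14.03% (12.8 to 15.3) after PBS with AngII/PE. They were 2.13% (1.59 to 2.79) after carboplatin with saline and 2.40% (1.90 to 2.99) after PBS with saline. The cells were chosen with their scarcity under saline known, so these 4 shares are a description. The ratio of carboplatin to PBS under AngII/PE was 1.10 (0.982 to 1.24), an interval that spans 1. In female-called cells the share was 15.3% after carboplatin and 11.9% after PBS, and in male-called cells 17.5% and 16.6%. Thinning every cell to 5000 UMIs before the rule left 6.53% after carboplatin and 5.17% after PBS, a ratio of 1.26 (1.03 to 1.56), and thinning to 8000 UMIs left 12.1% and 11.6%, a ratio of 1.05 (0.896 to 1.22). The number of rule genes per cell had no gap at the threshold. Among C1q-high cells without Ccr2, 588 cells after carboplatin and 364 after PBS under AngII/PE had 3 rule genes, just outside the rule, and 424 and 274 had 4, just inside it. Ccl8 stood at 172 CPM in cells with 4 rule genes and 61.6 CPM in cells with 3 after carboplatin, and at 207 and 78.4 CPM after PBS. A further 699 cells after carboplatin and 326 after PBS under AngII/PE had 4 or more rule genes but at least 1 UMI of Ccr2. H2-Aa, an MHC class II chain, stood at 1446 CPM in members with 4 rule genes after carboplatin, against 2469 CPM in those cells.

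**Figure D2:**
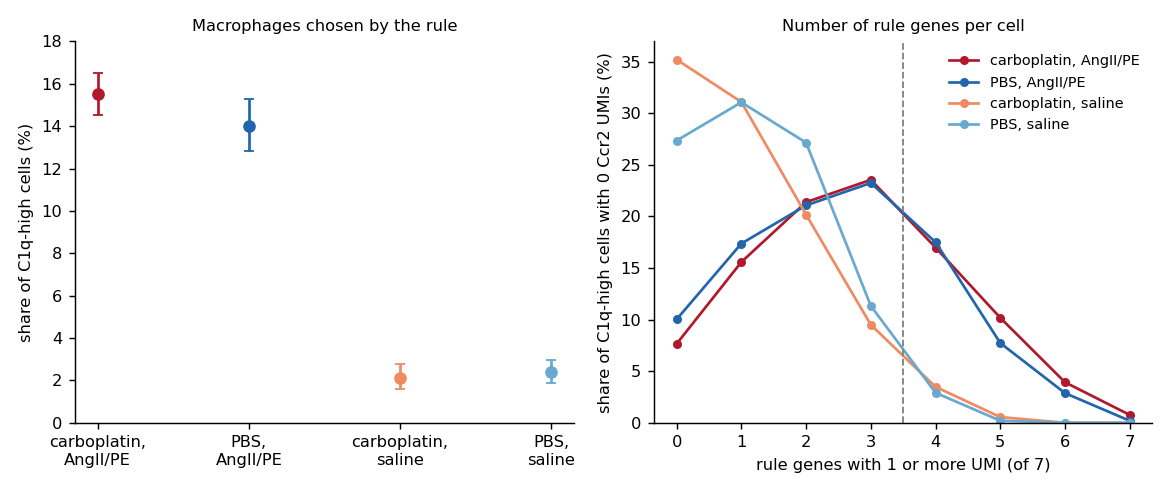
Left, the share of C1q-high cells that met the rule in each library, with 95% Clopper-Pearson intervals for counting error. Right, the share of C1q-high cells without Ccr2 by number of rule genes with a UMI, where the dashed line marks the threshold: the AngII/PE curves peak at 3 genes and the saline curves at 0 or 1, with no second peak.

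Beyond the rule genes, members had more Gpnmb, Fabp5, Ctsd and Spp1 than other C1q-high cells, and less of 6 of 10 MHC class II genes. In both AngII/PE libraries 12 of 8530 measured genes (0.141%) were at least 2-fold higher in members and 42 (0.492%) at least 2-fold lower. The rule chose these same cells, so nothing is read from those shares. Gpnmb, a glycoprotein of lipid-loaded macrophages, stood at 87.5 CPM in members and 26.5 CPM in other C1q-high cells after carboplatin, and 108 and 41.5 CPM after PBS. Fabp5, a fatty acid-binding protein, stood at 208 against 83.8 CPM and 214 against 93.8 CPM. Ctsd, the lysosomal protease cathepsin D, stood at 2443 against 1137 CPM and 2048 against 1034 CPM. Spp1, which encodes osteopontin, stood at 560.3 against 276 CPM and 418 against 222 CPM. Gpnmb and Spp1 were uneven among members, as Ccl8 was. Gpnmb had a UMI in 185 of 795 members after carboplatin and 137 of 443 after PBS, and the 10% of members richest in Gpnmb carried 84.3% of the Gpnmb UMIs in the carboplatin library, against 75% in the PBS library. For Spp1 the same share of members carried 71.3% in the carboplatin library, against 66.7% in the PBS library. As lists, 0 of 23 lysosome genes and 0 of 10 cholesterol handling genes were at least 2-fold higher in both libraries.

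Of the lists, 0 of 10 growth factors and 0 of 16 efferocytosis genes were at least 2-fold higher in both libraries. Igf1, a growth factor, stood at 348 against 161 CPM after carboplatin and 339 against 184 CPM after PBS. Gas6, which bridges dying cells to phagocyte receptors, stood at 330 against 172 CPM and 221 against 122 CPM. Folr2, a folate receptor of resident macrophages, stood at 197 against 98.7 CPM and 98.6 against 52.0 CPM. Npl, which breaks down sialic acid, Mgst1, a glutathione transferase, Ninj1, Serpinb6a, Pmp22, Phyhd1, Ankrd33b and Gdpd1 made up the rest of the 15 highest, with log2 ratios of 0.84 to 1.15.

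The low end was led by antigen presentation. Cd74, the invariant chain, stood at 3334 CPM in members and 9939 CPM in other C1q-high cells after carboplatin. H2-Aa stood at 1219 against 3382 CPM after carboplatin and 1343 against 3985 CPM after PBS. Ciita, the activator of MHC class II transcription, stood at 32.2 against 86.4 CPM and 27.9 against 111 CPM. Of 10 MHC class II genes measured, 6 were at least 2-fold lower in both libraries, against 0.492% of all genes. This count is a description, since members had 0 UMIs of Ccr2 by the rule. Of the 2714 other C1q-high cells after PBS with AngII/PE, 1591 carried Ccr2. Against other C1q-high cells without Ccr2, log2 ratios of H2-Aa were -0.65 after carboplatin and -0.56 after PBS, and of Cd74 -0.72 and -0.71, under 2-fold. H2-Eb1, H2-Ab1, the lectin Mgl2, Plbd1, Klra2, Olfm1 and Sh2d1b1 were the others named, with log2 ratios between -1.82 and -1.14. Of 16 lipid-associated genes, 2 were at least 2-fold higher and 1 lower, and of 18 microglia-like genes 0 passed 2-fold in either direction, with medians of 0.05 after carboplatin and 0.08 after PBS on the log2 scale.

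The comparison changed when only cells without Ccr2 were used. Set against other C1q-high cells with 0 UMIs of Ccr2, Folr2 differed by 0.20 after carboplatin and -0.02 after PBS on the log2 scale, Igf1 by 0.44 and 0.19, and Gpnmb by 0.71 and 0.38. Spp1 kept 0.77 and 0.74, Ctsd 0.77 and 0.60, and H2-Eb1 -0.73 and -0.73. These 6 differences were smaller than against all other C1q-high cells. Of the rule genes, Rapsn and Tmem119 differed more in both libraries, and Ccl8 after carboplatin and Cela1 after PBS. Rapsn stood at 2.05 and 2.03 in place of 1.15 and 1.24. C1q-high cells without Ccr2 were outside membership only because they carried too few rule genes. All other C1q-high cells also include cells with enough rule genes but with Ccr2. The differences in rule genes thus follow from the rule and are a description.

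Members with and without Ccl8 differed in genes that the rule did not use. Among members after carboplatin with AngII/PE, the 331 with a Ccl8 UMI had 290 CPM of Folr2 and the 464 without had 132 CPM. After PBS with AngII/PE, the 149 with Ccl8 had 168 CPM of Folr2 and the 294 without had 62.4 CPM. Cbr2, a carbonyl reductase of resident macrophages, was ordered alike, at 270.5 against 120.1 CPM after carboplatin and 159 against 65.3 CPM after PBS. Lyve1, a hyaluronan receptor of resident macrophages, stood at 78.0 against 19.5 CPM and 55.0 against 17.4 CPM. Tmem119 ran the other way, at 58.7 CPM with Ccl8 against 124 CPM without after carboplatin, and 78.0 against 131 CPM after PBS. Tmem119 is itself a rule gene, so a member without Ccl8 had to reach 4 genes among the other 6. Median depth was close, at 15225 UMIs with Ccl8 and 15620 without after carboplatin. The summed level of the interferon-stimulated list, which the rule did not use, was 4177 CPM with Ccl8 against 3117 CPM without after carboplatin, and 3087 against 1950 CPM after PBS. Fcrls itself hardly differed, at 921 against 1005 CPM after carboplatin and 736 against 711 CPM after PBS.

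A minority of AngII/PE members held the classic resident markers. At least 2 of Timd4, Lyve1, Folr2 and Cd163 had a UMI in 20.0% (17.3 to 22.9) of members after carboplatin and 12.4% (9.49 to 15.8) after PBS under AngII/PE, and in 72.5% and 87.2% of members after carboplatin and PBS with saline. Other C1q-high cells under AngII/PE showed them in 8.72% and 7.63%, at lower depth. The 159 such members after carboplatin held 487 CPM of Gas6 and 1578 CPM of Ms4a7, against 284 and 2535 CPM in the 636 with at most 1 marker. The 55 such members after PBS held 578 CPM of Gas6 and 1433 CPM of Ms4a7, against 167 and 2284 CPM in the other 388. Spp1 differed between libraries within the marker-bearing members, at 462 CPM after carboplatin and 104 CPM after PBS. High Spp1, Gpnmb or Fabp5, with at least 2 of the 3 at 5 UMIs per 10000 or more, was found in 8.18% of members after carboplatin and 8.58% after PBS under AngII/PE, against 1.75% and 2.43% of other C1q-high cells. H2-Aa, H2-Ab1 and H2-Eb1 together reached 10 per 10000 in 32.3% and 30.5% of these members. Their summed MHC class II level had a median of 40.3 UMIs per 10000 after carboplatin and 37.4 after PBS, with 90th percentiles of 276 and 286, so the level was uneven between members.

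Members of the saline libraries met the rule through other genes. Ccl8, Fcrls, Cela1 and Ctla2b were the 4 rule genes in 27.5% of members after carboplatin with saline and 48.7% after PBS with saline. The commonest set under AngII/PE was Fcrls, Syngr1, Tmem119 and Ctla2b, in 12.2% of members after carboplatin and 21.9% after PBS. AngII/PE and saline members are therefore set side by side as cells found by 1 rule, not as 1 population before and after. With carboplatin, 79 of 3606 genes at 50 CPM or more (2.19%) were at least 2-fold higher in AngII/PE members and 127 (3.52%) at least 2-fold lower. With PBS, 116 of 3653 (3.18%) were at least 2-fold higher and 158 (4.33%) lower. The saline sides rest on 51 and 78 cells.

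Many lipid-associated genes were higher in AngII/PE members, with 10 of 14 past 2-fold after carboplatin and 8 of 14 after PBS, and 1 of 14 past 2-fold lower in each comparison. Spp1 stood at 560.3 CPM under AngII/PE and 25.01 CPM under saline after carboplatin, and at 418 and 12.1 CPM after PBS. Fabp5 stood at 208 against 10.4 CPM and 214 against 8.53 CPM. Gpnmb stood at 87.5 CPM under AngII/PE against 0 UMIs under saline after carboplatin, and at 108 CPM against 4 UMIs after PBS. Thbs1, which encodes the matrix protein thrombospondin 1, had 0 UMIs in both saline sets and stood at 27.8 CPM after carboplatin and 56.0 CPM after PBS under AngII/PE. Ms4a7 stood at 2317 against 553 CPM after carboplatin and 2172 against 515 CPM after PBS, ratios of 2.07 and 2.08 on the log2 scale.

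Resident and antigen-presenting genes ran the other way. In the resident list, 5 of 13 genes lay past 2-fold on the low side in AngII/PE members after carboplatin and 14 of 17 after PBS. Folr2 stood at 197 CPM under AngII/PE and 553 CPM under saline after carboplatin, and 98.6 against 702 CPM after PBS. Of 9 MHC class II genes, 7 were at least 2-fold lower in each comparison. H2-Aa stood at 1219 against 6636 CPM after carboplatin and 1343 against 5907 CPM after PBS. Mgl2, a galactose-binding lectin, stood at 31.2 against 688 CPM and 35.0 against 642 CPM. Among the rule genes, Ccl8 was lower under AngII/PE, at 235 against 667 CPM after carboplatin and 219 against 388 CPM after PBS, and Syngr1 was higher, at 120 against 20.8 CPM and 129 against 8.53 CPM.

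**Figure D3:**
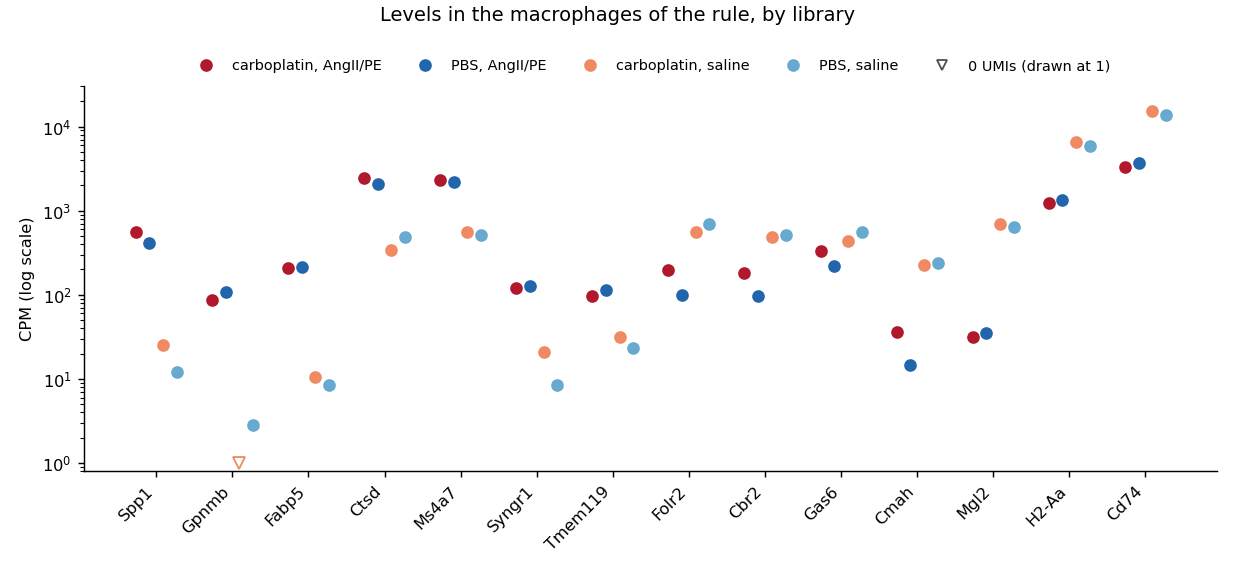
CPM on a log axis of 14 named genes in members of each library, with an open triangle for 0 UMIs. Spp1, Gpnmb, Fabp5, Ctsd and Ms4a7 are higher in both AngII/PE libraries and Folr2, Cbr2, Cmah, Mgl2, H2-Aa and Cd74 are lower in both.

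Between members after carboplatin and after PBS, both with AngII/PE, the genes furthest apart were higher after carboplatin for Cmah, Slc40a1, H2-Q7, Hdac9 and Folr2 and lower for Cacna1a, Mid1, Nlrp1b, Ube2e2 and Colec12. As lists, 5 of 14 MHC class I genes were higher and 0 lower, and 3 of 17 resident genes were higher and 3 lower. Of 8454 genes with a mean of 10 CPM or more, 92 (1.09%) were at least 1.5-fold higher after carboplatin and 121 (1.43%) at least 1.5-fold lower. Of the 92, 82 were higher in both sexes and 28 passed 1.5-fold in both, and of the 121, 103 were lower in both sexes and 42 passed it in both. The 92 and 121 were picked by the pooled ratio of these same cells, so agreement between the sexes is partly built in. Of 6192 genes eligible to be named, at a mean of 20 CPM or more, 3594 had 1 direction in both sexes. Over the 8454 genes, female-called members had 4.42% at least 1.5-fold higher and 4.29% lower, on fewer cells, and male-called members 1.30% and 2.26%. In other C1q-high cells 37 of the same genes (0.438%) were past 1.5-fold higher and 62 (0.733%) lower. These values rest on far more UMIs, and the part of counting scatter in the difference from members was not tested. Of the 92, 85 were also higher in other C1q-high cells and 30 passed 1.5-fold there. Of the 121, 113 were lower there and 41 passed it. The genes named next were chosen among those with 1 direction in both sexes, so that direction is part of the choice.

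Cmah, which converts a sialic acid precursor, stood at 36.6 CPM after carboplatin and 14.6 CPM after PBS, a ratio of 2.50 (2.02 to 3.12), or 1.77 female and 1.09 male. Slc40a1, the iron exporter ferroportin, stood at 43.2 against 20.2 CPM, a ratio of 2.14 (1.78 to 2.59), with log2 ratios of 1.08 in female-called and 1.13 in male-called members. In other C1q-high cells Slc40a1 stood at 18.4 against 16.8 CPM, a log2 ratio of 0.12. That was the smallest such ratio among the 12 highest genes. In the same cells Slfn9 had 1.25 and Folr2 0.93, and Cacna1a, of the low end, had -2.44. Hdac9, a histone deacetylase, stood at 438 against 216 CPM, a ratio of 2.02 (1.91 to 2.14), with log2 ratios of 1.32 and 1.03 in female-called and male-called members. It was the most abundant of the 12 highest genes and had a UMI in 84.4% of members after carboplatin and 68.8% after PBS. Endothelial cells also held it, at 623 CPM after carboplatin and 828 CPM after PBS, and endothelial markers summed to 35.2 CPM in members after carboplatin and 26.0 CPM after PBS.

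Resident markers Folr2 and Cbr2 were also among the 12. Folr2 stood at 197 against 98.6 CPM, a ratio of 2.0 (1.84 to 2.18), but on the log2 scale this was 1.34 among female-called and 0.34 among male-called members. Cbr2 stood at 182 against 97.5 CPM, a ratio of 1.87 (1.71 to 2.03), with 1.14 and 0.72. More members held at least 2 resident markers after carboplatin (20.0%) than after PBS (12.4%), and the part of that share in these 2 genes was not tested. Within members that held at most 1 resident marker, Cbr2 stood at 94.3 CPM after carboplatin and 46.2 CPM after PBS, Hdac9 at 409 and 198 CPM, and Slc40a1 at 27.6 and 13.5 CPM.

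Secreted factors made a further group. Pdgfc, a platelet-derived growth factor for fibroblasts, stood at 138 CPM after carboplatin and 72.6 CPM after PBS, a ratio of 1.90 (1.72 to 2.10), or 1.04 female and 0.77 male, and had a UMI in 60.0% and 35.7% of members. Gdf3, a ligand of the TGF-beta superfamily, stood at 85.1 against 48.0 CPM, a ratio of 1.77 (1.57 to 2.01), or 0.50 female and 0.59 male. Cfb, complement factor B, stood at 29.0 against 15.8 CPM, a ratio of 1.84 (1.49 to 2.29), or 1.41 female and 0.47 male. Dbp, a transcription factor driven by the circadian clock, stood at 92.2 against 47.1 CPM, a ratio of 1.95 (1.73 to 2.21), or 1.26 female and 0.68 male, and the sources used here do not give the hour of collection. H2-Q7, a non-classical MHC class I gene with near-identical neighbours, stood at 116 against 56.5 CPM, with log2 ratios of 1.40 in female-called and 0.35 in male-called members. Slfn9 and the X-linked Reps2 completed the 12, with log2 ratios of 0.84 and 0.83.

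At the low end, Cacna1a, a calcium channel subunit, stood at 15.4 CPM after carboplatin and 42.2 CPM after PBS, a ratio of 0.366 (0.304 to 0.440). Male-called members had 17.6 against 48.5 CPM, whereas female-called members had 11.3 against 13.5 CPM, so the gap lay mostly in the male-called cells. Nlrp1b, a sensor that starts the inflammasome, stood at 34.9 against 82.4 CPM, a ratio of 0.424 (0.374 to 0.480). It was at 10.0 against 92.1 CPM in female-called members and 59.5 against 81.2 CPM in male-called members, so the female-called members after carboplatin stood apart. This was not particular to members. Other C1q-high cells had 12.4 against 113.6 CPM of Nlrp1b when female-called and 82.6 against 104 CPM when male-called. Mid1, an X-linked ubiquitin ligase, stood at 11.9 against 31.7 CPM, a ratio of 0.375 (0.303 to 0.462), with log2 ratios of -1.09 among female-called and -2.21 among male-called members. Ube2e2, a ubiquitin-conjugating enzyme, stood at 21.9 against 51.4 CPM, a ratio of 0.426 (0.363 to 0.499).

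Colec12, a scavenger receptor of resident macrophages, stood at 15.8 CPM after carboplatin and 35.2 CPM after PBS, opposite in direction to Folr2 and Cbr2, with -1.69 female and -0.80 male. Under saline it stood at 40.6 CPM after carboplatin and 377 CPM after PBS in members. Thbs1 stood at 27.8 against 56.0 CPM, a ratio of 0.496 (0.429 to 0.574), or -0.47 female and -0.87 male. Il1rn, the interleukin 1 receptor antagonist, stood at 15.6 against 26.7 CPM, a ratio of 0.585 (0.477 to 0.717), or -0.53 female and -0.86 male. Bach2, a transcriptional repressor, was the most abundant of the 12 lowest at 89.7 against 159 CPM, a ratio of 0.563 (0.518 to 0.611), or -1.12 female and -0.73 male. Adam22, AY036118 (annotated as a long non-coding RNA), Ppp1r9a and Abtb2 were the rest, with log2 ratios between -1.01 and -0.81.

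**Figure D4:**
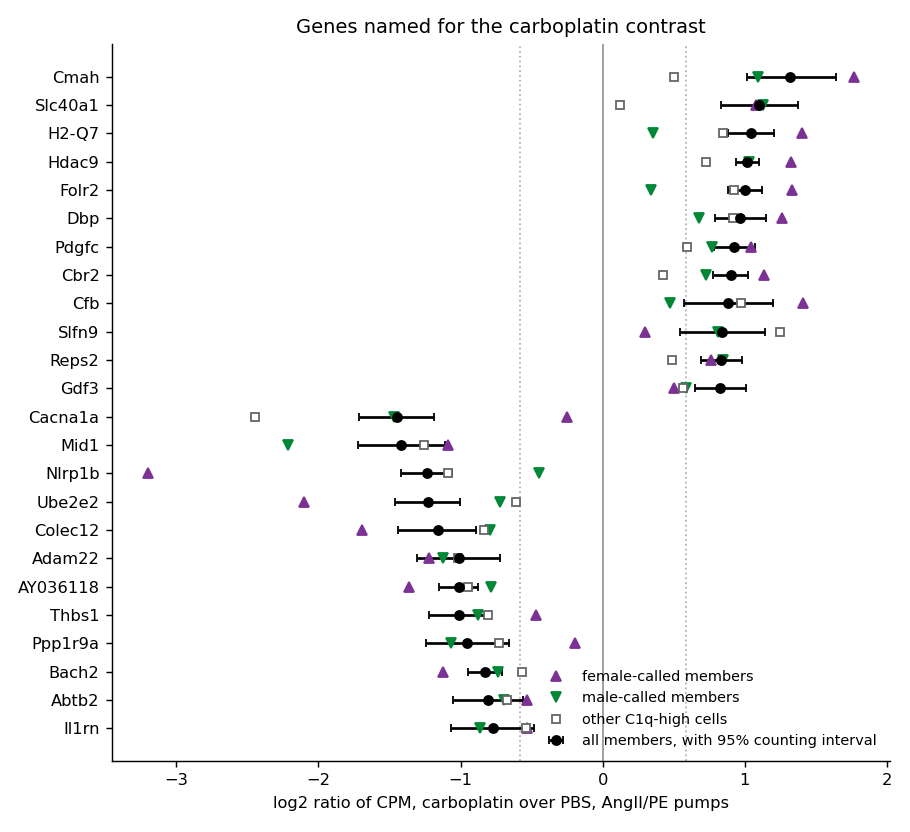
The log2 ratio of CPM, carboplatin over PBS with AngII/PE pumps, for the 24 named genes. Black points are all members with 95% counting intervals, upward triangles female-called members, downward triangles male-called members and open squares other C1q-high cells. Nlrp1b (-3.20 in female-called and -0.45 in male-called members) and Ube2e2 (-2.10 and -0.72) differ most between the sexes.

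Of the 7 genes in the rule, 1 passed 1.5-fold after carboplatin, namely Cela1, at a ratio of 1.57 (1.31 to 1.89) and log2 ratios of 0.75 in female-called and 0.69 in male-called members. Fcrls had a ratio of 1.35 (1.31 to 1.39), but a log2 ratio of 0.06 in female-called members and 0.58 in male-called members. Ccl8 had a ratio of 1.07 (1.01 to 1.14), Rapsn 1.14 (1.02 to 1.29), Syngr1 0.934 (0.860 to 1.01), Ctla2b 0.926 (0.863 to 0.993) and Tmem119 0.857 (0.784 to 0.938). Ms4a7 had a pooled log2 ratio of 0.09, with -0.23 among female-called and 0.22 among male-called members. The rule used the 7 genes in both libraries, so their ratios are a description.

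MHC class I and interferon-stimulated genes were the lists with the most genes at least 1.5-fold higher after carboplatin. Of 14 MHC class I genes 5 were higher and 0 lower, with a median log2 ratio of 0.52, against 1.09% of all genes higher and a median of -0.01. Among female-called members the median was 0.65 and 10 of 14 were past the fold, against 4.42% of all genes in that sex. Among male-called members it was 0.13 and 0 were past it, against 1.30% of all genes. The summed MHC class I level was 10620 CPM after carboplatin and 7391 CPM after PBS in female-called members, and 7120 and 5989 CPM in male-called members. The genes furthest from 0 were H2-Q7, H2-Q6 (50.9 against 25.6 CPM), H2-T22 (87.8 against 53.4 CPM) and H2-Q4 (115 against 71.5 CPM), and the H2-Q genes may share reads. H2-Q6 had 1.29 female and -0.09 male, so the sexes differed in sign. Other C1q-high cells had a median of 0.46.

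Of 22 interferon-stimulated genes, 5 were higher and 0 lower, against 1.09% and 1.43% of all genes. The median log2 ratio of the list was 0.42, or 0.05 in female-called and 0.36 in male-called members. Ifi27l2a stood at 971 CPM after carboplatin and 553 CPM after PBS, a log2 ratio of 0.81, with 0.69 and 0.59 in female-called and male-called members. Ly6e stood at 888 against 533 CPM, with 0.84 female and 0.58 male. Irf7, a transcription factor of the response, stood at 144 against 90.5 CPM, with 0.81 female and 0.45 male, and Usp18 at 34.9 against 21.3 CPM, with 0.14 female and 0.56 male. The summed level was 4180 against 3032 CPM in female-called and 3002 against 2192 CPM in male-called members, so it was higher after carboplatin in both. Per cell, the list's median was 24.4 UMIs per 10000 in members after carboplatin and 14.2 in members after PBS, against 23.6 and 14.6 in other C1q-high cells of the same libraries, so members and other C1q-high cells were close.

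MHC class II gave different values pooled and within the sexes. Its pooled median log2 ratio was 0.06 with 0 of 9 genes past 1.5-fold, yet it was -0.18 among female-called members and -0.66 among male-called members, where 5 of 9 genes were at least 1.5-fold lower, against 2.26% of all genes in that sex. The summed level was 13380 CPM after carboplatin and 16510 CPM after PBS in female-called members, and 5890 and 7491 CPM in male-called members. Female-called members thus held more in both libraries, and the carboplatin library had more of them. H2-Aa stood at 1918 against 2652 CPM in female-called members and 549 against 915 CPM in male-called members.

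The proliferation list was small, with 2 of 3 measured G2/M genes higher and a median of 0.75, against 0.81 in other C1q-high cells. Its median was -0.51 among female-called and 0.89 among male-called members. Beside the lists of this paragraph, 1.09% of all genes were higher and 1.43% lower. Top2a, a topoisomerase of dividing cells, stood at 18.9 against 9.81 CPM, with -0.51 female and 1.85 male, and Mki67, a marker of dividing cells, at 25.1 against 14.9 CPM, with 0.54 female and 0.89 male. At least 3 G2/M genes had a UMI in 4.78% (3.40 to 6.50) of members after carboplatin and 4.29% (2.60 to 6.62) after PBS. The resident list had 3 higher and 3 lower of 17, with a median of 0.18. Vsig4, a complement receptor of resident macrophages, was the lowest at 4.38 against 22.7 CPM, with -1.72 female and -2.98 male. Ccl24, a chemokine for eosinophils, stood at 23.9 against 12.6 CPM, with 1.30 female and 0.78 male. Lipid-associated genes had 2 of 15 higher, Fabp4 at 110 against 48.2 CPM (1.24 female and 1.00 male) and the fatty acid receptor Cd36 at 148 against 80.6 CPM (0.84 female and 0.66 male). Endothelial markers summed to 35.2 against 26.0 CPM in these members, and the part of endothelial RNA in Fabp4 and Cd36 was not tested. Spp1 had a pooled log2 ratio of 0.42, with 0.65 female and 0.62 male, and Gpnmb -0.30, with 0.36 female and -0.20 male. Of 24 p53 target genes, which DNA damage induces, 1 was higher, Phlda3 at 23.2 against 14.2 CPM (0.37 female and 0.84 male), with a list median of 0.14. Of 9 CC chemokines 1 was higher and 0 lower, and of 6 CXC chemokines 0 were higher and 2 lower, Cxcl10 at 120 against 186 CPM (-0.22 female and -0.71 male) and Cxcl1 at 13.3 against 20.2 CPM. Cxcl1 ran in opposite directions in the sexes, with 4.45 on the log2 scale among female-called and -0.26 among male-called members. With 94 female-called members after PBS, female ratios of genes at such low CPM rest on few UMIs.

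Among growth factors 2 of 10 were higher, Pdgfc and Gdf3, and among clock genes 2 of 10, Dbp and the repressor Cry1 at 16.3 against 10.6 CPM (1.09 female and 0.30 male). Beside these lists and those below, 1.09% of all genes were higher and 1.43% lower. Iron and haem genes had 2 of 15 higher, Slc40a1 and the ferroxidase Cp (1.05 female and -0.19 male), and 1 lower, the haemoglobin scavenger receptor Cd163 at 50.4 against 78.1 CPM (-0.69 female and -0.36 male). Hmox1, which breaks down haem, stood at 248 against 174 CPM, a log2 ratio of 0.51 that was under the fold, with 0.60 female and 0.55 male. Klf2, a transcription factor that restrains inflammatory genes, stood at 181 against 109 CPM, with log2 ratios of 1.31 and 0.36 among female-called and male-called members. Of 16 inflammatory genes 1 was higher, Il10 at 13.7 against 8.85 CPM (2.12 female and 0.55 male), and 2 were lower, Ptgs2 at 7.48 against 16.7 CPM and Il1rn. The direction of Ptgs2, which makes prostaglandin precursors, differed between the sexes, with log2 ratios of 0.58 among female-called and -1.32 among male-called members. Of 15 TGF-beta signalling genes, 23 lysosome genes, 17 hypoxia and glycolysis genes and 7 Fc receptors, 0 passed 1.5-fold in either direction. Of 14 inflammasome genes 2 were lower, Nlrp1b and its near-identical neighbour Nlrp1a (-2.42 female and -0.21 male). The monocyte-derived list had 1 higher and 3 lower of 8, with a median of -0.17. It had 5 higher and 1 lower among female-called members, with a median of 1.12, and 1 higher and 3 lower among male-called members, with a median of 0.06. Of all genes, 4.42% were higher and 4.29% lower in female-called members, against 1.30% and 2.26% in male-called members. S100a8 and S100a9, calcium-binding proteins also made by neutrophils, stood at 29.9 against 104 CPM and 37.1 against 137 CPM. All 8 neutrophil markers had UMIs in both sets, at summed levels of 142 CPM after carboplatin and 343 CPM after PBS, and their part in those 2 genes was not tested. S100a9 was at 76.4 against 2.71 CPM in female-called and 11.8 against 198 CPM in male-called members, so its direction differed between the sexes. The value of 2.71 CPM comes from 94 cells and rests on few UMIs. Erythroid markers summed to 10.6 CPM after carboplatin and 172 CPM after PBS, where 3 cells held at least 3 of them. T and NK markers summed to 18.2 CPM after carboplatin and 24.5 CPM after PBS. Of the 8, 4 had UMIs after carboplatin (Cd3e, Cd3d, Il7r and Nkg7) and 3 after PBS (Cd3d, Trac and Il7r), and 0 cells held at least 3.

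**Figure D5:**
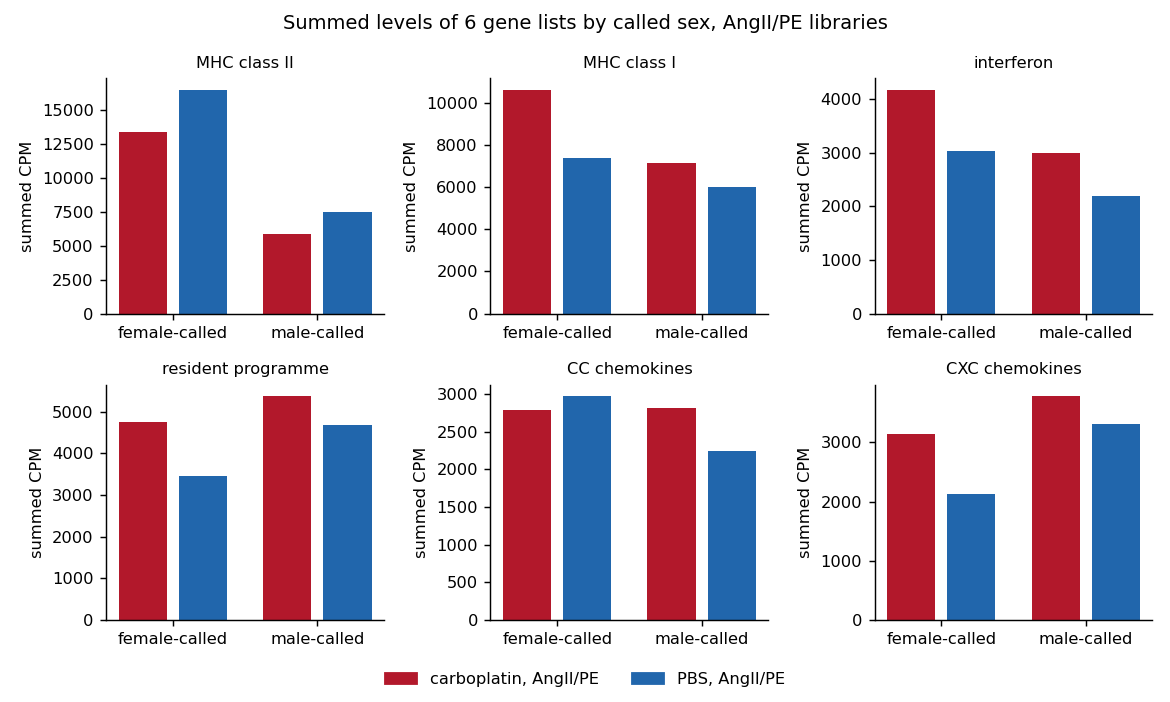
Summed CPM of 6 gene lists in female-called and male-called members of the AngII/PE libraries, without error bars because each bar is 1 library. MHC class II is higher in female-called members of both libraries (13380 and 16510 CPM) than in male-called ones (5890 and 7491 CPM), and MHC class I and interferon bars are higher after carboplatin in both sexes.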

How the data were processed

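UMI counts per gene and cell were deposited as 4 filtered matrices, made by the authors with Cell Ranger 7.1.0 per the file headers. The labels' protocols name Cell Ranger 3, a 10x 3' kit 3.1, mm10 and Seurat 3.2.3, and the submitters' processing notes name Seurat 4. The submitters state 38066 cells before and 17438 after their filters. The files hold 27968 barcodes, of which 17312 met the same limits (under 10% mitochondrial UMIs, under 30000 UMIs, more than 500 and fewer than 7000 genes). Counts were used as deposited. UMIs were summed over cells and divided by the summed total to give CPM. Ratios carry exact conditional binomial intervals and shares Clopper-Pearson intervals, at 95%. Both cover counting error only, and with 1 library a group no test was possible. Fold limits were 1.5 between treatments (mean of 10 CPM or more), and 2 for identity and for AngII/PE against saline.

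No doublet caller was run; cells with markers of another type, and cells over 25000 UMIs, were left out as alternatives. Kept cells with fewer than 10 C1q UMIs per 10000 and at least 4 endothelial markers served as the endothelial check.

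The members, gene lists and the splits by Ccl8, resident markers and sex were chosen with earlier results of these data known. Genes were named by rank of CPM ratio at a mean of 20 CPM or more. Left out were rule genes, ribosomal protein and mitochondrial genes, unnamed models, markers of other cells and genes over 5 times higher in C1q-low cells. Of genes tied to sex, only Xist, Tsix, Ddx3y, Eif2s3y, Kdm5d and Uty were left out. Other X-linked genes stayed eligible, Mid1 and Reps2 among them. Identity took 15 high and 10 low genes, ranked by the weaker of the AngII/PE libraries. The treatment comparison took 12 and 12 with 1 direction in both sexes. Each list gave up to 4 genes with the largest absolute log2 ratio. The intervals were tested on simulated counts that were drawn independently, as the intervals assume. That check cannot cover genes whose UMIs lie mostly in few cells. Gene IDs matched GENCODE M21 (GRCm38) for 32158 of 32285. Python 3.11, numpy 2.4.6, scipy 1.17.1, pandas 2.3.3 and matplotlib 3.10.9 were used.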

Additional observations from a re-analysis of the deposited data

Results flagged for a closer look

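Among lists with at least 5 measured genes, 4 had median log2 ratios, carboplatin over PBS under AngII/PE, of opposite sign and at least 0.1 from 0 in both female-called and male-called members. CC chemokines had a median of -0.17 in female-called and 0.43 in male-called members. Yet 4 of 9 CC chemokines were at least 1.5-fold higher and 0 lower in female-called members, against 1 and 0 in male-called members. Of all genes, 4.42% were higher in female-called and 1.30% in male-called members. CXC chemokines had 0.84 in female-called and -0.21 in male-called members. Inflammatory genes had 0.21 in female-called and -0.31 in male-called members. Immediate-early and heat shock genes had 0.27 in female-called and -0.11 in male-called members. The G2/M list, with 3 measured genes, had -0.51 in female-called and 0.89 in male-called members, and lists with a median nearer to 0 in either sex are left out. These differences between the sexes were not tested, since each sex is a share of 1 library a group, and the female-called side after PBS rests on 94 cells. Pf4, the most abundant CXC chemokine, was higher after carboplatin in both sexes, with log2 ratios of 0.95 and 0.45. Ccl7 had -0.23 in female-called and 0.54 in male-called members, and Il1b 0.49 and -1.02.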

How the results depend on the processing

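The ratio of member shares, carboplatin over PBS under AngII/PE, was 1.10 as reported. It was 1.26 (1.03 to 1.56) with cells thinned to 5000 UMIs before the rule and 1.35 (1.12 to 1.63) with at least 5 rule genes. In female-called cells it was 1.28 (1.02 to 1.63), and with Ctla2b left out of the rule 1.36 (1.15 to 1.62). With no limit on Ccr2 it was 1.20 (1.10 to 1.31). These intervals leave out 1, so whether the interval spans 1 depends on the setting. The remaining alternatives gave 1.01 to 1.12, with intervals that span 1, and 0 alternatives turned the direction. The 92 genes higher and 121 lower became 29 and 26 at a minimum mean of 50 CPM, where 3656 genes were compared, and 868 and 1161 with a minimum of 10 UMIs, where 13767 were compared. They were 157 and 227 with at least 5 rule genes, 54 and 72 with no limit on Ccr2, and 329 and 422 in female-called cells, with the minimum mean taken within them. Genes lower numbered 189 in male-called cells and 183 with Ctla2b left out of the rule. For settings other than the 2 minimums the cause was not tested. Of log2 ratios of single genes under these alternatives, 412 stayed inside the reported counting interval and 100 did not. Of list medians, 554 stayed inside the medians of the interval bounds and 68 did not. Median-of-ratios scaling and totals without mitochondrial and ribosomal protein genes shifted the median of all genes by under 0.1 on the log2 scale. The settings without cells over 25000 UMIs, without Ctla2b and with the mean of the sexes were chosen after seeing the data. No paired analysis was possible because each group is 1 library. Depth limits genes near 10 CPM most, and the saline comparisons rest on 51 and 78 members.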
